A study of Mus musculus with 3 samples.

Results

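The first day of Gata6 overexpression in mouse embryonic stem (ES) cells was described by setting the day 1 array against the day 0 control array, 2 of the 3 arrays of the study. The comparison was made gene by gene over all genes with a usable signal, 13602 of 18193 genes on the array, and apart from a floor on dim signals no value was used to choose them. Per the design text, the ES cells had been modified so that Gata6 overexpression responded to dex. The sources used here do not give the dose of dex, the hour at which it was added, the strain, the clone or the number of cultures behind each RNA sample. The labels call the day 0 sample a control and do not say whether it carried the Gata6 modification. A difference between the days is therefore also a difference between single cultures and, possibly, between cell populations. With 1 array a day there is no replicate, no test was possible, and "higher" and "lower" below mean a difference of at least 2-fold between these arrays.

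Gata6 is a zinc finger transcription factor that binds the core sequence GATA. In the embryo it is needed for the primitive endoderm, the layer that forms from the inner cell mass beside the pluripotent epiblast and later gives rise to the visceral and parietal endoderm of the yolk sac. FGF from epiblast precursors acts through ERK signalling to favour primitive endoderm, while Nanog favours epiblast. Primitive endoderm cells are polarised, take up protein by endocytosis and secrete the laminin and collagen IV of the basement membrane. Forced Gata6 or Gata4 is known to turn ES cells into cells that resemble this layer.

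Values are MAS5 signals, linear intensities that were brought to a common trimmed mean. Signals under 54.0 were set to that floor. Where the dimmer array lay at the floor, or under 75.5, the 95th percentile of olfactory and vomeronasal receptor genes that ES cells should not express, the fold is written as at least N-fold. Of 70 such receptor genes, 56 were at the floor on both days. None of the other 14 differed 2-fold, which signals this close to the floor could hardly show, so it does not test the calls. In brackets, a pair of numbers gives the day 0 signal and then the day 1 signal. The only error that 1 array a day allows comes from the disagreement between probe sets of 1 gene. The SD of the differences between their log2 ratios, divided by the square root of 2, was 0.41 over 19439 pairs. It fell with brightness, from 0.51 for signals under 200 to 0.30 between 200 and 1000, 0.18 between 1000 and 5000 and 0.13 above 5000. It compares probe sets on the same 2 arrays, so it covers neither an error shared by a whole array nor the spread between cultures. RNA integrity was read from the Actb control probes, whose 3' over 5' signal was 1.25 on day 0 and 1.21 on day 1. The label of pluripotent cells fitted the day 0 array, on which Pou5f1, Nanog, Sox2 and Zfp42 were between 4051 and 22582. Of the primitive endoderm genes, Gata4, Sox17, Foxa2 and Pdgfra were at the floor on that array, and Sox7 (54.9) and Dab2 (71.9) were near it. Gata6 (109.6) and the matrix genes Lama1 (1729) and Col4a1 (2147) were above it.

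Of the 13602 genes, 816 (5.999%) were higher and 895 (6.580%) lower on day 1, together 12.58%. The counts given for gene lists below are to be read beside these shares. The numbers of higher and lower genes were similar at 2-fold, but the sizes were not. At 4-fold and above there were 212 higher and 160 lower genes, at 8-fold 74 and 31, at 16-fold 33 and 1, and at 64-fold 6 and 0. Of the 816 higher genes 202 were at the floor on day 0, and of the 895 lower genes 194 were at the floor on day 1. Among the 892 genes above 5000 on day 0, 9 (1.01%) were higher and 46 (5.16%) lower. For 428 of the higher genes more than 1 probe set could be compared, and in 360 all of them pointed the same way. The same held for 334 of 384 lower genes.

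**Figure D1:**
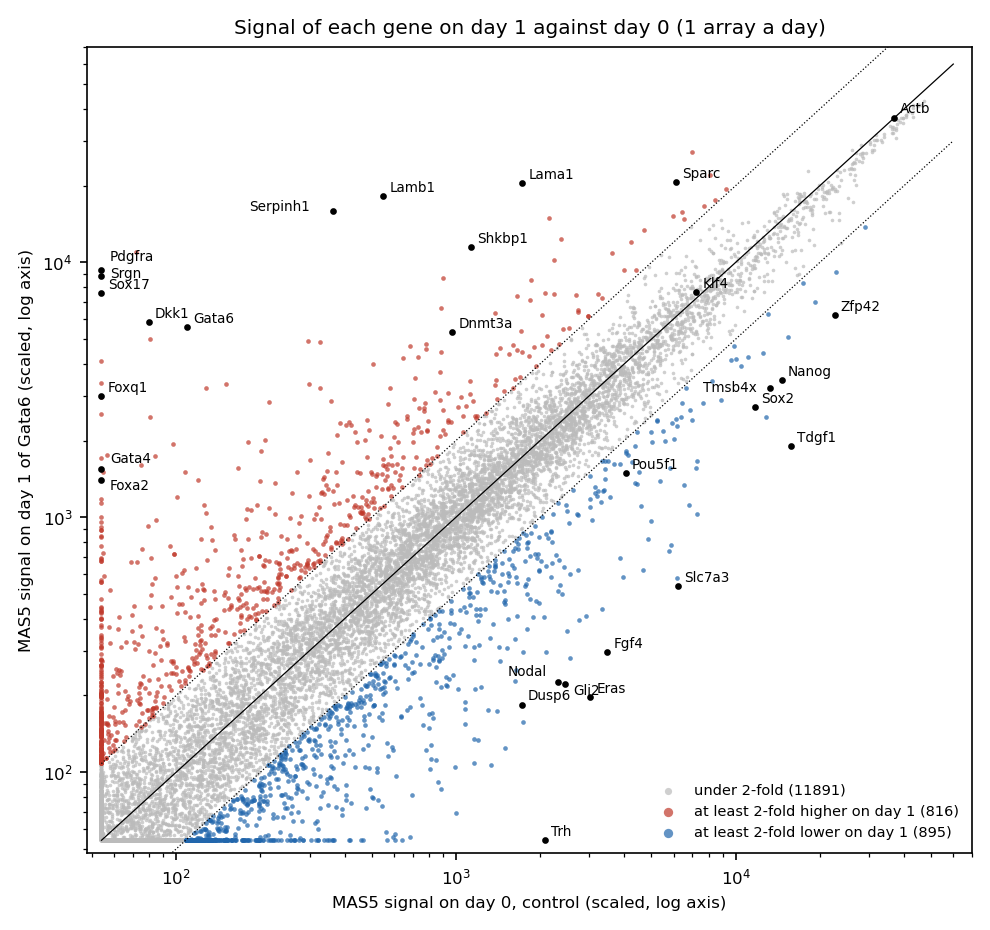
MAS5 signal of each of the 13602 compared genes on day 0 (horizontal, log axis) against day 1 (vertical, log axis), with 1 array a day. The solid line marks equal signal and the dotted lines 2-fold. The 816 higher genes (red) include a column at the floor of 54.0 on day 0 that reaches 9365 for Pdgfra, and the 895 lower genes (blue) include a row at the floor on day 1. The 202 higher genes in that column and the 194 lower genes in that row have a bound for the day at the floor.

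The transcription factors that define primitive endoderm were far higher on day 1. Gata6 stood at 109.6 on day 0 and at 5574 on day 1, which was 50.8-fold higher. Its 2 probe sets above the floor had log2 ratios from 4.41 to 5.67, and whether they detect the introduced gene, the resident gene or both is not known here. Gata4, the partner that acts after Gata6 in this lineage, stood at the floor on day 0 and at 1545 on day 1. The other GATA factors differed less. Gata1 had signals of 190.4 and 377 and Gata2 of 108 and 127, both under 2-fold. Gata3, a trophoblast regulator, had 72.7 and 91.6, near the receptor background. The cofactor Zfpm1 (FOG1), which binds GATA factors, was 6.01-fold higher (226 to 1360.2). Trps1, a GATA-type repressor, was 2.84-fold lower (471 to 166).

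Of the 3 SoxF factors, which act in endoderm and blood vessels, Sox17 stood at the floor on day 0 and at 7586 on day 1 and Sox7 at 54.9 on day 0 and at 1501 on day 1. Sox18, the vascular member, had 81.3 and 94.6. Among 15 forkhead and HNF factors, 5 were higher and 2 lower. Foxq1 reached 2994 and Foxa2, a pioneer factor of endoderm, 1401, both from the floor. Foxa1 (floor to 276, at least 5.10-fold) and Hnf4a (floor to 181, at least 3.36-fold), a liver and visceral endoderm receptor, were also higher, but under the higher floor of the 60th percentile neither passed 2-fold. Foxd3, a forkhead factor of the pluripotent epiblast, was 7.87-fold lower (808 to 103).

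Further transcription factors off the endoderm lists were also higher. Ets1 reached 846 and Runx1, a blood regulator, 479, both from the floor. Elf3, an epithelial ETS factor, stood at 683 on day 0 and at 4715 on day 1. Meis1, a homeobox cofactor, was at least 5.92-fold higher (69.6 to 412), and Hopx, an atypical homeodomain protein, 5.63-fold higher (374 to 2105). Msx2, a homeobox target of BMP signalling, stood at the floor on day 0 and at 891 on day 1. Over the 47 ETS, AP-2, T-box and other factors, 11 were higher and 8 lower. Of 36 homeobox factors outside the Hox clusters, 7 were higher and 2 lower. None of the 13 measured Hox genes passed 2-fold either way.

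**Figure D2:**
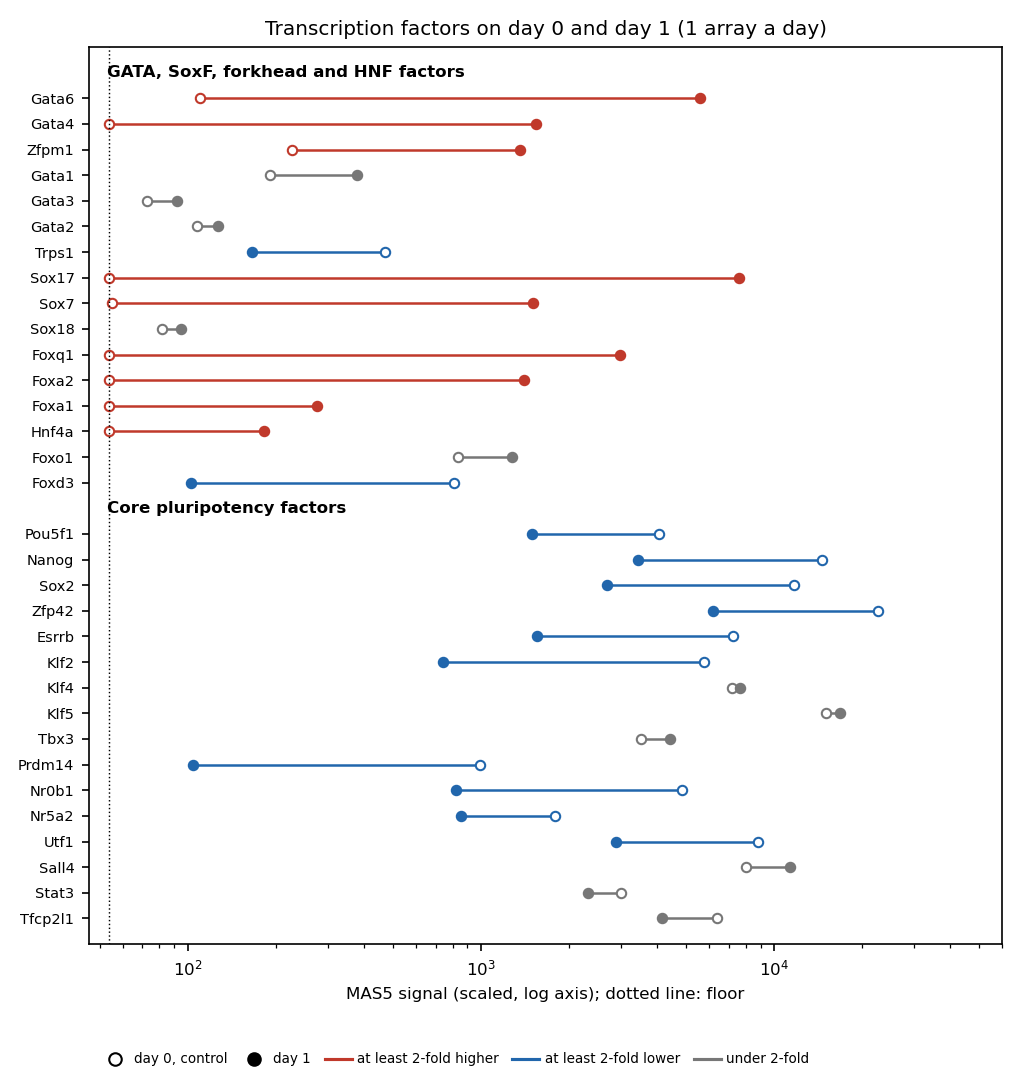
MAS5 signals (log axis) on day 0 (open) and day 1 (filled) of GATA, SoxF, forkhead and HNF factors and of pluripotency factors, 1 array a day, with the floor of 54.0 as a dotted line. Gata4, Sox17, Foxq1 and Foxa2 run from the floor to between 1401 and 7586, and Klf4, Klf5 and Tbx3 lie within 2-fold while Klf2 and Prdm14 are lower.

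The promoters of the genes with the highest ratios were read to show what sequence precedes them. Of the 25 genes with the highest ratios and probe sets that pointed the same way, 19 had a RefSeq promoter, 23 promoters in all, and 7 genes had a GATA motif (AGATAA or AGATAG or TGATAA or TGATAG on either strand) in the 250 bases before the start. Of the 25 lowest, 3 of 17 genes did, and of all compared genes with a promoter, 2279 of 10934 (20.8%). Shown are 4 of the 7 among the highest, on GRCm38.p6 and 5' to 3' on the gene's strand, with the motif in capitals, which in Flrt3 is read on the opposite strand. Dab2 and Foxa2 also have other listed starts, and none of these has the motif in the 250 bases before it. The Dab2 stretch is chr15:6299539-6299788 (plus strand), that of Klb chr5:65348161-65348410 (plus), that of Flrt3 chr2:140671477-140671726 (minus) and that of Foxa2 chr2:148045465-148045714 (minus).
Dab2: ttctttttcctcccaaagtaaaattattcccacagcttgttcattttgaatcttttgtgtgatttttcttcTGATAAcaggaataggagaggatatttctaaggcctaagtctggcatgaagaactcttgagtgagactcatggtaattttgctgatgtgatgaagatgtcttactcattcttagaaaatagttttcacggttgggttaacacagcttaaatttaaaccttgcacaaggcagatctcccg
Klb: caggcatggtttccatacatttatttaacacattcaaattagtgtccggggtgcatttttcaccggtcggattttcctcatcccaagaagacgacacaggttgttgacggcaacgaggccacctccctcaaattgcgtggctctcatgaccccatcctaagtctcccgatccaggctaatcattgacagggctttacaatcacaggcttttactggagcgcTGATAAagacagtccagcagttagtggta
Flrt3: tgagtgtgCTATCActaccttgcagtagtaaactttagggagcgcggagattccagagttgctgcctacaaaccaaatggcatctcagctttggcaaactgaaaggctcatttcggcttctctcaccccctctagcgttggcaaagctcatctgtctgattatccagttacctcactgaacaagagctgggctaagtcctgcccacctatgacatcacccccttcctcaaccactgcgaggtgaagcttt
Foxa2: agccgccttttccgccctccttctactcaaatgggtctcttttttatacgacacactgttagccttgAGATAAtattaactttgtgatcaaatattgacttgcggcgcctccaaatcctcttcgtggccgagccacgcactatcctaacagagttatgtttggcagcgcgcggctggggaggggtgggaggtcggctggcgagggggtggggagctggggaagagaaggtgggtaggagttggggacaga
The motif begins 179 bases before the start in Dab2, 29 in Klb, 242 in Flrt3 and 183 in Foxa2.

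Such a match is common. Over the full 300 bases of a table entry (250 before and 50 after the start), 19.5% of the 13961 promoters of compared genes held a GATA motif. The share was 19.4% of 846 for higher genes, 18.1% of 237 at 4-fold and 21.2% of 85 at 8-fold, against 19.7% of 969 for lower genes and 23.1% of 173 at 4-fold lower. Close promoter windows of higher genes thus held the motif about as often as those of all genes. The octamer ATGCAAAT, a motif of the POU factor Pou5f1, was rarer, in 1.25% of all 13961, 1.89% of the 846 and 2.99% of the 969 promoters. At 4-fold its shares were 2.53% for higher and 2.89% for lower genes. Shown with 2 octamers in capitals, 125 and 71 bases before the start, is the promoter of Zfp428, a zinc finger gene that was 9.10-fold lower (2561 to 281), at chr7:24506837-24507086 (plus strand).
Zfp428: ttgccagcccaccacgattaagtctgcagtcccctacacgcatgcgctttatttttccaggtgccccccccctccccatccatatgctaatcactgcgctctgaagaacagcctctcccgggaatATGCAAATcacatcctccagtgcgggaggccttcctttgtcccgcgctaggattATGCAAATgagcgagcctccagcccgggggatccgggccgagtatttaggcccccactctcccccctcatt
These matches are letters in a window and say nothing of binding.

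Of the 28 measured primitive endoderm markers outside the regulators, 25 were higher, 1 was lower, and the median log2 ratio was 3.13, against -0.045 over all genes. Their summed signal was 23829 on day 0 and 183902 on day 1. The brightest members on day 1 were matrix genes, Sparc at 20721, Lama1 at 20502 and Lamb1 at 18252. Many members, such as Lama1, Cubn and Klb, also stand on lists described below. The list was chosen with earlier results of these data known, so neither the count nor the sum is independent of them. In bulk RNA, more cells of a type and more RNA per cell cannot be told apart. Cited1, a transcriptional coactivator, reached 371 and Pth1r, the receptor for parathyroid hormone-related protein, 444, both from the floor. Aqp8, a water channel, was 11.7-fold higher (119.5 to 1404). The keratins Krt8 (567 to 1552, 2.74-fold) and Krt18 (556 to 1594, 2.87-fold), filament partners of simple epithelia, differed by nearly the same factor. The lower member was Prdm1, a repressor better known from germ cells (293 to 79.0, 3.70-fold).

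The markers of the later derivatives differed in both directions. Of 17 parietal endoderm genes, 9 were higher and 1 lower, the median log2 ratio being 1.64. Several of these, such as Gata4, Sox7, Lama1 and the collagen IV chains, also stand on other lists. Nostrin, an endocytic scaffold protein, stood at the floor on day 0 and at 1708 on day 1, and the zinc finger factor Snai1 at 215 on day 0 and at 673 on day 1. The lower one was Pdpn, podoplanin (475 to 218, 2.18-fold). The visceral endoderm list had 10 higher and 5 lower genes among 25 and a median log2 ratio of 0.45. The higher ones included the endocytic receptor genes Cubn, Lrp2 and Amn, with signals given below, and Mttp, which loads lipid onto lipoproteins (61.3 to 245, at least 3.99-fold). Afp and Apoa1, secreted proteins of mature visceral endoderm, were at the floor on both days, and Ttr, the thyroxine carrier, had the floor and 68.5. Hhex, a homeobox gene of the anterior visceral endoderm, had 308 and 435. Otx2, active in both epiblast and visceral endoderm, was 4.27-fold lower (2559 to 599).

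On the pluripotency side, 13 of 26 core factors were lower and 1 higher, the median log2 ratio being -0.96. Their summed signal was 148711 on day 0 and 86866 on day 1. The widest differences were in Prdm14, a repressor of FGF signalling and DNA methylation in ES cells (995 to 104, 9.53-fold), and in Klf2 (5786 to 740.4, 7.81-fold). Nr0b1, an orphan receptor that binds Pou5f1, was 5.90-fold lower (4858 to 824) and Gbx2, a target of LIF signalling, 5.75-fold lower (495 to 86.1). Esrrb, an estrogen-related receptor of the naive state, stood at 7223 on day 0 and at 1557 on day 1. Most of these genes were still well above the floor on day 1, Nanog at 3442 and Zfp42 at 6204.

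Several naive factors did not pass 2-fold. Klf4 had 7216 and 7641, Klf5 15070.5 and 16813, and Tbx3 3518 and 4423. Sall4, a zinc finger factor of ES cells and primitive endoderm, had 8058 and 11337. Tfcp2l1, a target of LIF and STAT3, had 6372 and 4138 (log2 ratio -0.62). Within the Kruppel-like family, Klf2 and Klf4 thus differed: the log2 ratio was -2.97 for Klf2 and 0.083 for Klf4, whose 2 probe sets gave -0.043 and 0.083. Klf6, an immediate early member, was 3.74-fold higher (668 to 2494).

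Of 35 effectors and surface markers of pluripotency, 16 were lower and 1 was higher. Trh, thyrotropin-releasing hormone, had the lowest ratio of all genes with the floor in place. It had 2079.7 on day 0 and no signal above the floor on day 1. Eras, a Ras protein of ES cells, stood at 3013 on day 0 and at 197 on day 1, and Morc1, a germ line chromatin protein, was 10.7-fold lower (6151 to 577). Tdgf1, the Nodal co-receptor Cripto, was 8.27-fold lower (15764 to 1905). The Polycomb protein Phc1, encoded near Nanog, was 7.11-fold lower (7293 to 1026), and the lysosomal mannosidase Manba 5.58-fold lower (3872 to 693). Dppa5a had signals of 40759 and 37051 and Dnmt3l, a partner of the de novo methyltransferases, 8277 and 10866, so not all ES cell markers were dimmer. Among primed epiblast genes, 4 of 16 were higher and 6 lower. Fgf5, the usual marker of the primed epiblast, was at the floor on both days.

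Markers of other lineages and of feeder cells were read as whole lists. Of 21 trophoblast regulators, 4 were higher and 4 lower. Of the defining factors, Elf5 was at the floor on both days and Cdx2 reached 80.0 from it. Ascl2 reached 238 from the floor, the highest ratio of the list, and Hand1 had 312 and 158. Eomes had 555 and 716. Of 13 mesoderm and primitive streak genes, 0 were higher and 1 lower, and Mixl1 was at the floor on both days. Neural and ectoderm genes had 3 higher and 3 lower of 13. The higher ones were Msx2, given above, Neurog3 (65.8 to 208) and Irx3 (57.7 to 166). Tubb3, a neuronal tubulin, was 5.08-fold lower (826 to 163), and Pax6 was at the floor on both days. Germ cell genes had 0 higher and 4 lower of 24. Of 18 fibroblast and feeder markers, 7 were measured, 0 were higher and 1 was lower, and the fibroblast collagens Col1a1 and Col3a1 were at the floor on both days. The summed signal of the 7 was 1052 on day 0 and 763 on day 1. The lower one was Thy1, a surface glycoprotein (421 to 75.4, at least 5.59-fold). Of 8 measured genes of the 2-cell-like state, 4 were higher, but several belong to families of near-identical copies whose signals this array may not separate.

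Signalling genes differed in both directions within most pathways. Fgf4, the ES cell ligand that drives ERK, was 11.7-fold lower (3465 to 296). Fgf3 was 4.37-fold higher (118 to 516) and Fgf10 at least 5.75-fold higher (floor to 311), so 2 of 11 measured ligands were higher and 3 lower. Fgf5 and Fgf8 were at the floor on both days. On the receptor side, 7 of 20 receptors and co-receptors were higher and 2 lower. Fgfr1 was 3.63-fold lower (395 to 109), and its 3 probe sets above the floor had log2 ratios from -1.86 to -0.69. Fgfr2 was 6.06-fold higher (386 to 2341) and Fgfr3 4.55-fold higher (181 to 824). Without the probe sets named as less specific, neither Fgfr1 nor Fgfr2 passed 2-fold, at log2 ratios of -0.69 and 0.0. Klb, the beta-Klotho co-receptor for endocrine FGFs, stood at the floor on day 0 and at 3359 on day 1. Flrt3, a transmembrane protein that binds FGF receptors, stood at the floor on day 0 and at 4103 on day 1.

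Of the ERK cascade, its feedback inhibitors and its target genes more were lower than higher, 8 against 2 of 28. Dusp6, an ERK phosphatase induced by ERK itself, was 9.32-fold lower (1716 to 184). The ETS factors Etv4 (884 to 215, 4.11-fold) and Etv5 (7269.8 to 1662, 4.37-fold), also ERK targets, were lower. The feedback inhibitors Spred1 (1435 to 542, 2.65-fold) and Il17rd (1204 to 391, 3.08-fold) were lower too. Spry2, another feedback inhibitor, had 2123 and 2065, and Spry4 1023 and 616. Ccnd1, the cyclin downstream of ERK, was 4.60-fold lower (1424 to 309.5). The higher ones were Dusp4, another ERK phosphatase (298 to 634, 2.12-fold), and Sos2, a Ras exchange factor (137 to 284, 2.08-fold). Egr1, an immediate early gene, was dim on both days, at 92.0 and 62.6.

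Among receptor tyrosine kinases of the PDGF, Kit and VEGF class, Pdgfra stood at the floor on day 0 and at 9365 on day 1. With the floor in place this was the highest ratio of all genes, a rank that rests on the floor because the day 0 value is a bound. The 3 probe sets of Pdgfra above the floor had log2 ratios from 4.23 to 7.44. Pdgfa, its main ligand in the embryo, stood at 1376 on day 0 and at 642 on day 1 but missed 2-fold as a mean over probe sets (log2 ratio -0.96), and Pdgfc stood at 474 on day 0 and at 105 on day 1. Kit had 1721 and 909, and Vegfc, a lymphatic growth factor, was 4.04-fold lower (976 to 241).

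BMP ligands differed in both directions. Bmp4, which supports ES cells through Id genes, stood at 4682 on day 0 and at 621 on day 1. Bmp2 stood at the floor on day 0 and at 2963 on day 1 and Bmp6 at 55.1 on day 0 and at 587 on day 1. The extracellular BMP modulator Bmper also reached 769 from the floor. The target Id1 was 3.08-fold higher (2023 to 6225), and Id3 had 1067 and 1489. Id2 (278 to 623) was also higher, as was Msx2, given above. Other targets were dimmer on day 1 without passing 2-fold: Id4 had 618 and 387, Smad6 1097 and 579, Smad7 1788 and 1073, and Msx1 120 and 88.8. In all, 6 of 28 BMP genes were higher and 2 lower. Among Nodal, activin and TGF-beta genes, 5 of 27 were higher and 6 lower. The ligand Nodal was 10.2-fold lower (2312 to 226), the activin subunit Inhbb 12.1-fold lower (1497 to 124) and the inhibitor Lefty1 2.91-fold lower (673 to 231). The second EGF-CFC co-receptor, Cfc1 (Cryptic), was 5.53-fold higher (80.4 to 444), opposite to Tdgf1.

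Wnt ligands, receptors and antagonists had 4 higher and 5 lower of 33. The secreted antagonists split: Dkk1, which blocks the Lrp co-receptors, stood at 79.6 on day 0 and at 5816 on day 1, while Notum, which removes the lipid from Wnt, stood at 860.1 on day 0 and at 91.2 on day 1. Sfrp1, a decoy receptor, was 2.44-fold lower (757 to 309.9), as was the receptor Fzd5 (1532 to 556, 2.76-fold). Of 21 Wnt intracellular genes and targets, 1 was higher and 3 were lower. The higher one was Axin2, a feedback target of beta-catenin (219 to 509.8, 2.32-fold). The lower ones were Tcf7l1 (2272 to 711), Nkd1 (145 to 66.4) and Ccnd1 (1424 to 309.5). Ctnnb1, beta-catenin itself, had 22659 and 19346. In the Hedgehog pathway, the transcription factors Gli1 (456 to floor, at least 8.45-fold) and Gli2 (2448 to 221, 11.1-fold) and the kinesin Kif7 (347 to 90.8, 3.82-fold) were the lower genes among 16, and 2 were higher. The receptor Ptch1 had 2169 and 1335. Notch genes had 0 higher and 5 lower of 21, among them Rbpj, the DNA-binding partner of Notch (6670.5 to 3217, 2.07-fold).

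The LIF side, which maintains mouse ES cells, had 5 lower and 1 higher genes of 19. The receptor Lifr had 2103 and 1238, Stat3 2997 and 2318, and the target Socs3 4348 and 3073. The kinase Pim1 was 2.25-fold lower (1791 to 795), as was the STAT5 target Socs2 (1984 to 833, 2.38-fold). Retinoid genes were lower more often than higher, 5 against 2 of 16. The receptor Rarg was 4.89-fold lower (1629.7 to 333) and the binding protein Crabp1 6.26-fold lower (500.1 to 79.9), while Cyp26a1, which degrades retinoic acid, was 4.82-fold higher (110.4 to 532).

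Of 25 Hippo genes, 5 were higher and 2 lower. Amot, a junction protein that holds YAP outside the nucleus, stood at 80.3 on day 0 and at 5024 on day 1. The YAP paralog Wwtr1 (TAZ) was 5.05-fold higher (883 to 4457) and the target Ccn2 2.48-fold higher (345 to 853). The targets Ccn1 (377 and 386) and Ankrd1 (64.8 and the floor) did not pass 2-fold. The upstream tumour suppressor Nf2 was 2.66-fold lower (1911 to 718). In the insulin and IGF pathway, the PI3-kinase regulatory subunit Pik3r1 was 10.9-fold higher (180.4 to 1975) and the receptor adaptor Grb10 5.09-fold higher (214 to 1089). The IGF-binding protein Igfbp2 was 5.20-fold lower (12875 to 2476). Ephrins and Eph receptors had one of the larger shares of higher genes outside endoderm, 7 of 16, with 1 lower. Epha4 (347 to 1518, 4.37-fold), Ephb3 (472 to 2011, 4.26-fold), Efna3 (333 to 1251, 3.75-fold) and Efna4 (776 to 2801, 3.61-fold) were among them, cell contact signals that guide cell sorting.

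**Figure D3:**
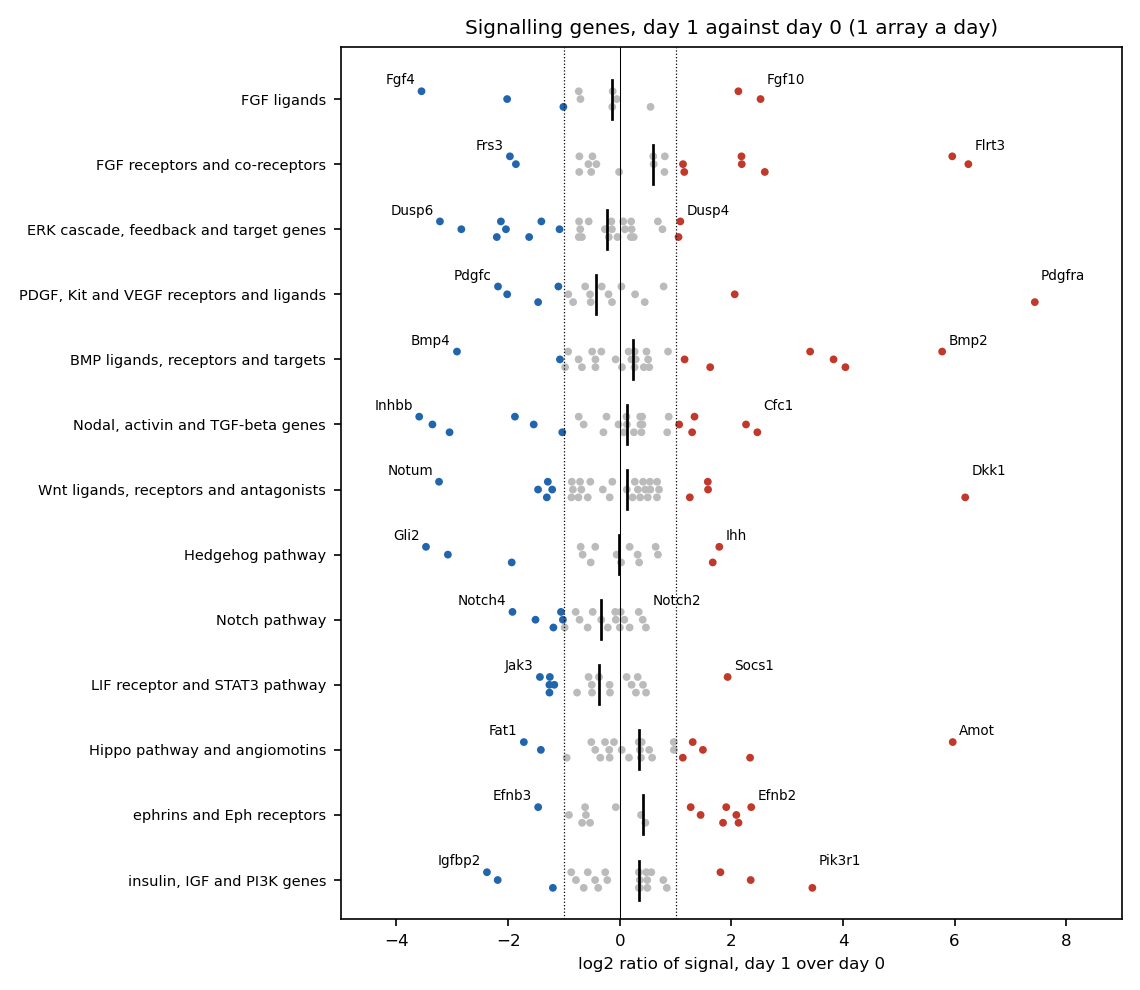
Log2 ratio of day 1 over day 0 signal (horizontal) for the measured genes of 13 signalling lists, 1 array a day, with each list's median as a bar and 2-fold as dotted lines. Each point is a gene, red where higher and blue where lower. Most lists hold both, with Pdgfra, Flrt3, Dkk1, Amot and Bmp2 far to the right and Inhbb, Fgf4 and Gli2 far to the left.

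The main laminin and collagen IV genes were higher on day 1. The 3 chains of the main embryonic laminin, Lama1 (1729 to 20502, 11.9-fold), Lamb1 (548 to 18252, 33.3-fold) and Lamc1 (2383 to 12399, 5.20-fold), were all higher. None of the other 7 laminin chains measured passed 2-fold, Lama5 having 1139 and 1222. Both collagen IV chains of the early embryo, Col4a1 (2147 to 14989, 6.98-fold) and Col4a2 (886 to 6639.6, 7.50-fold), were higher by similar factors. Peroxidasin, Pxdn, which crosslinks collagen IV, was 4.15-fold higher (125 to 520.0). Nidogens link both networks, and Nid1 had 2181 and 2904 and Nid2 3483 and 1874. Fibronectin, Fn1 (6547 to 1336, 4.90-fold), and Col18a1 (2437 to 638, 3.82-fold) were lower. Over the 19 basement membrane proteins other than laminins, 4 were higher and 2 lower.

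Several enzymes that fold collagen were higher too. Serpinh1 (HSP47), the collagen chaperone, stood at 363 on day 0 and at 15946 on day 1. The prolyl hydroxylases P4ha1 (298 to 3319, 11.1-fold) and P4ha2 (167 to 1562, 9.36-fold) and the lysyl hydroxylase Plod2 (899 to 8707, 9.69-fold) were higher by about the same factor. The shared beta subunit P4hb was 2.17-fold higher (7699 to 16686). The procollagen C-proteinase enhancer Pcolce was 3.85-fold lower (5360.5 to 1393) and its relative Pcolce2 2.89-fold lower (1266 to 438). The collagen cross-linking enzyme Lox had the floor and 81.3. In all, 7 of 24 were higher and 3 lower.

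Of 36 chaperones and stress genes of the endoplasmic reticulum (ER), 11 were higher and 1 was lower, the median log2 ratio being 0.70. The Hsp70 of the ER, Hspa5, stood at 8106 on day 0 and at 21949 on day 1 and the Hsp90 of the ER, Hsp90b1, at 4714 on day 0 and at 13357 on day 1. Dnajc3, their cochaperone, was 4.88-fold higher (572 to 2786), and the stress sensor Atf6 4.23-fold higher (335 to 1417). Creb3l2, a membrane-bound factor that induces secretory genes, was 11.6-fold higher (84.4 to 978). Xbp1, another factor of this response, missed 2-fold, with 4919.9 and 9555. Ddit3 (CHOP) had 1177 and 752, and its target Trib3 was 2.25-fold lower (1803 to 801). Genes for ER translocation and COPI and COPII vesicles had smaller differences, the median log2 ratio being 0.49 over 55 genes, 4 higher and 0 lower. Sec24d, a cargo adaptor needed for collagen export, was 2.71-fold higher (545 to 1478), and the cargo receptor Surf4 2.94-fold higher (897 to 2638).

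Among endocytic genes, the higher ones belonged mainly to 1 uptake system. Dab2, the clathrin adaptor of the primitive endoderm, stood at 71.9 on day 0 and at 10964 on day 1. The receptor Cubn reached 2542 from the floor, its membrane partner Amn was 6.49-fold higher (649 to 4211) and the partner receptor Lrp2 (megalin) 5.82-fold higher (733 to 4263). Lrpap1, the chaperone of Lrp2, was 3.90-fold higher (6958 to 27169). These 5 genes made up most of the 6 higher genes of 34, and the list's median was -0.056. Of 44 lysosomal genes, 7 were higher and 4 lower, the protease Ctsz (4242 to 11989, 2.83-fold) and the cholesterol transporter Npc1 (249.9 to 693, 2.77-fold) among the higher ones. The lysosomal regulator Tfeb was 2.40-fold lower (515 to 215).

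**Figure D4:**
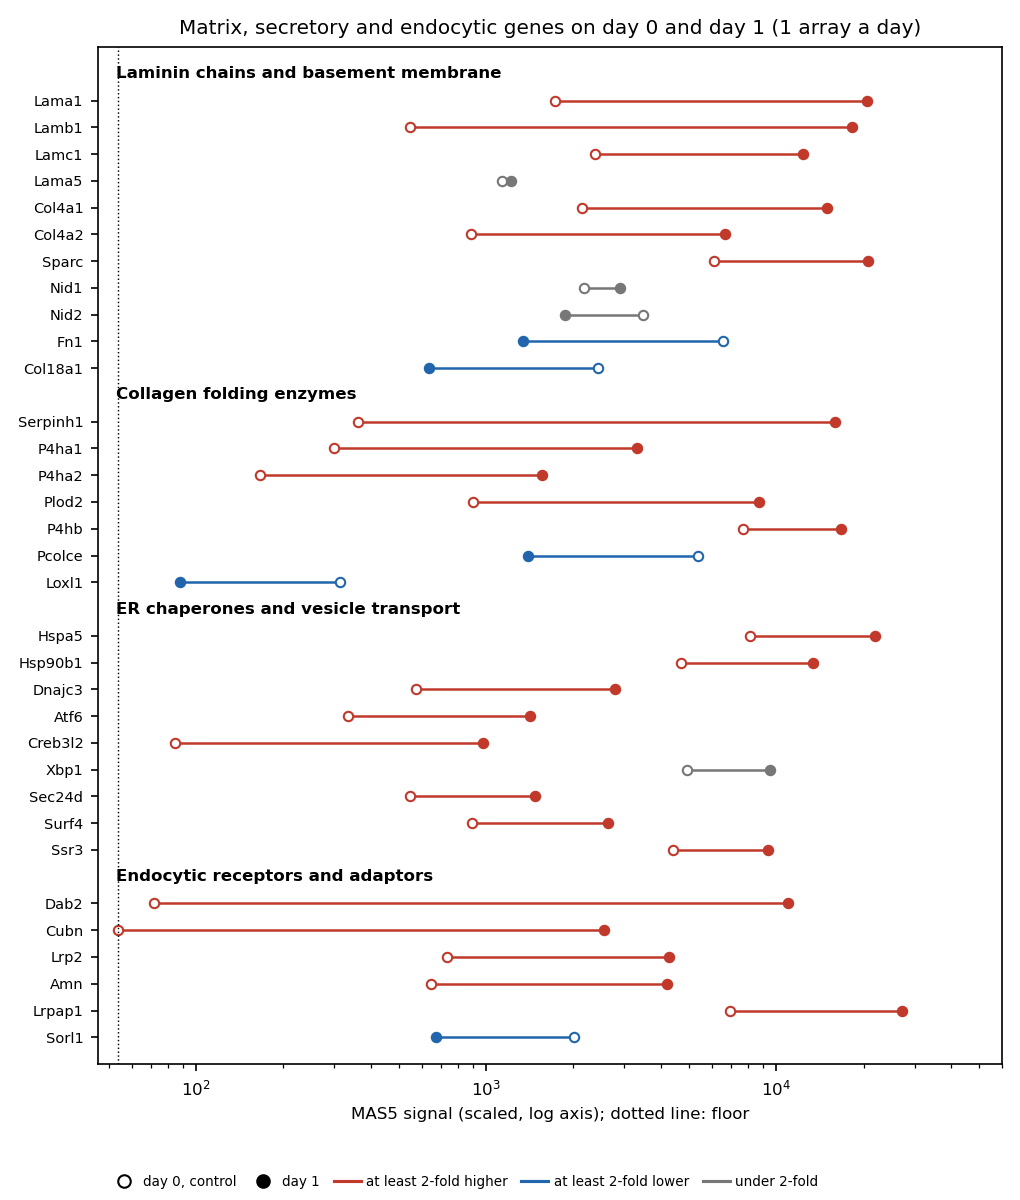
MAS5 signals (log axis) on day 0 (open) and day 1 (filled) for matrix, collagen folding, secretory and endocytic genes, 1 array a day, with the floor of 54.0 as a dotted line. Lama1, Lamb1, Serpinh1 and Dab2 end between 10964 and 20502, and Fn1, Col18a1, Pcolce and Sorl1 run to the left.

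Adhesion genes differed in both directions. Of 27 cadherins and regulators of the epithelial state, 6 were higher and 7 lower. E-cadherin, Cdh1, was 2.51-fold lower (3131 to 1249) and P-cadherin, Cdh3, at least 5.41-fold lower (322 to 59.6). N-cadherin, Cdh2, was 2.88-fold higher (138 to 399) and Cdh6, a kidney cadherin, stood at the floor on day 0 and at 430.3 on day 1. Snai1, known as a repressor of Cdh1, was higher as given above, and Vim, a mesenchymal filament protein, had 10566 and 14327. Esrp2, an epithelial splicing regulator, was 2.91-fold higher (171 to 498), whereas Grhl3, an epithelial transcription factor, was 3.02-fold lower (555 to 184). Desmosome genes split, with desmoplakin Dsp 3.16-fold higher (311 to 984) and plakoglobin Jup 3.25-fold lower (1779 to 548). Of 19 integrin genes, 1 was higher and 4 lower. Of 45 actin and motility genes, 9 were higher and 7 lower. The membrane-actin linker Marcks was 4.57-fold higher (1861 to 8502). Thymosin beta 4, Tmsb4x, which binds free actin, was 4.10-fold lower (13217 to 3220.4). Hs3st1, which adds the sulfate that gives heparan its anticoagulant form, was at least 31.1-fold higher (56.7 to 1762).

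Of 48 chromatin remodellers and histone enzymes, 2 were higher and 4 lower, close to the 12.58% of all genes that differed 2-fold either way. The de novo DNA methyltransferases Dnmt3a (969.6 to 5334, 5.50-fold) and Dnmt3b (6544 to 14836, 2.27-fold) were both higher, whereas Tet1, which oxidises methylcytosine, was 2.61-fold lower (6871 to 2629). Zfp57, which protects imprints, was 3.15-fold lower (868 to 276). Within Polycomb complex 1, Bmi1 was 3.54-fold higher (377 to 1335) and Cbx7 2.45-fold lower (2098 to 857). The core of Polycomb complex 2 stayed under 2-fold, with Ezh2 at 5096 and 3741 and Suz12 at 5007 and 3699.6. The H3K9 demethylase Kdm3a was 2.72-fold lower (6195 to 2280.2) and the H3K27 demethylase Kdm6b 3.02-fold higher (497 to 1502). Hmga2, an architectural protein, was 2.76-fold higher (1649.7 to 4549). Of 23 imprinted genes, 5 were higher and 2 lower, with Peg3 (550.1 to 1605, 2.92-fold) and Mest (2192 to 879, 2.50-fold) in opposite directions.

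None of 43 mitosis and DNA replication genes passed 2-fold, the range of their log2 ratios being -0.77 to 0.75. Among regulators of G1, Cdk6 was 6.77-fold lower (526 to 77.7) and the inhibitor Cdkn1a (p21) 2.45-fold lower (494 to 202). Myc had 1181 and 724 and Mycn 2976 and 6151, the second passing 2-fold with 1 probe set but not as a mean over its probe sets. Cell death genes had 4 higher and 0 lower of 24. The BH3-only proteins Pmaip1 (Noxa) (538 to 2090.0, 3.89-fold) and Bcl2l11 (Bim) (1388 to 4388, 3.16-fold), which promote cell death, were higher. Of 29 p53 genes, 1 was higher and 4 lower. The higher one was Phlda1 (403 to 2304, 5.71-fold), and Gadd45a, a stress-induced growth inhibitor, was 2.78-fold lower (1214 to 437).

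Because dex is a glucocorticoid if the abbreviation means dexamethasone, 27 genes around the glucocorticoid receptor were read. Of these, 0 were higher and 5 lower. Its targets Fkbp5 (3375 to 1284, 2.63-fold) and Dusp1 (1226 to 581, 2.11-fold) were lower, although Fkbp5 missed 2-fold as a mean over probe sets. The metallothioneins Mt1 (15411 to 5094, 3.03-fold) and Mt2 (19266 to 7017, 2.75-fold), which bind zinc and copper, were lower as well. Other targets did not pass 2-fold: Tsc22d3 (GILZ) had 133 and 213, Sgk1 14072 and 15847, and Per1 226 and 185. Glul, glutamine synthetase, had 4731 and 8263.

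Metabolic genes differed member by member, and the shares over all genes were 5.999% higher and 6.580% lower. Glycolysis had 2 higher and 3 lower of 32, with the kinase Pdk1, which limits pyruvate entry, 3.73-fold lower (5806 to 1559) and phosphofructokinase Pfkp 2.94-fold lower (5996 to 2037). Of 42 genes of the tricarboxylic acid cycle and the respiratory chain, 1 was higher and 0 lower. Lipid genes had 8 higher and 3 lower of 38. The fatty acid elongase Elovl7 was 8.85-fold higher (126 to 1114) and the fatty acid carrier Fabp3 3.64-fold higher (2082 to 7568), and Cpt1a, the entry step of fatty acid oxidation, was 2.54-fold lower (1607 to 633). Of 31 cholesterol genes, 3 were higher and 1 was lower. The amino acid transporters Slc7a3 (6208 to 535, 11.6-fold) and Slc7a7 (2924 to 409.5, 7.14-fold) were lower, and Slc7a6 (452 to 1486, 3.29-fold) was higher. The metal reductases Steap1 (1526 to 306, 4.98-fold) and Steap2 (416 to 122, 3.41-fold) were lower. The hypoxia factor Epas1 was 4.04-fold lower (1656 to 409.6).

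The general machinery of gene expression hardly differed. None of 31 ribosomal protein genes and none of 44 ribosome biogenesis genes passed 2-fold. The biogenesis genes nevertheless had a median log2 ratio of -0.21 and a range of -0.69 to 0.079. Of 34 translation and heat shock genes, 2 were higher and 0 lower, the cochaperone Bag3 (198 to 705, 3.56-fold) being one. Actb had 36689 and 36977, and Hprt, a purine salvage enzyme used as a reference gene, 6449.8 and 7444. B2m, also used as a reference, was 2.63-fold higher (617 to 1622).

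**Figure D5:**
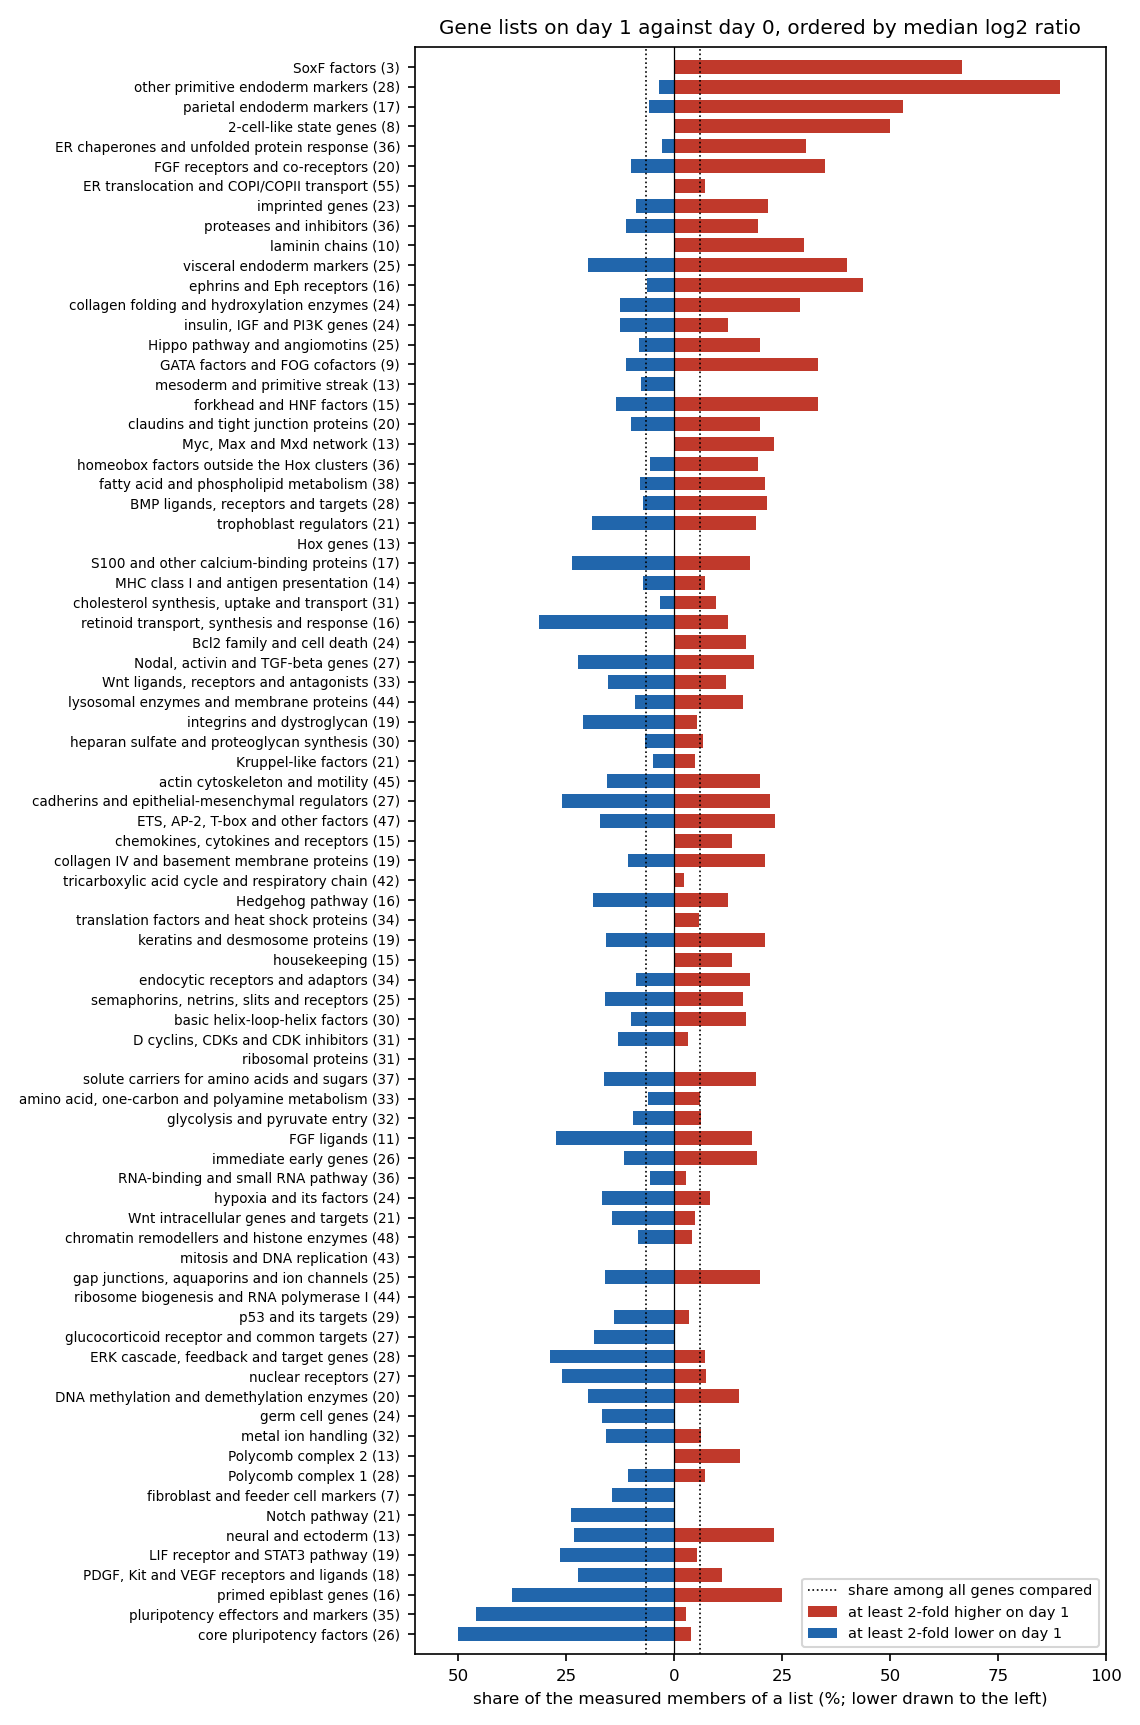
Share of each gene list's measured members (%, number in brackets) that was at least 2-fold higher (red, to the right) or lower (blue, to the left) on day 1, ordered by the list's median log2 ratio. The dotted lines are the shares over all 13602 genes, 5.999% higher and 6.580% lower. Primitive endoderm markers have the longest red bar and core pluripotency factors the longest blue one, while ribosomal, ribosome biogenesis, mitosis and Hox lists have no bar. The lists were chosen with earlier results of these data known.

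Among the genes with the highest ratios that stand on no list are several of known function. Eva1a, an autophagy protein, was 30.6-fold higher (80.6 to 2469.5), and Pcbd1, a cofactor of the hepatic factor HNF1, 20.7-fold higher (83.8 to 1733). Pik3ap1, an adaptor for PI3-kinase, was at least 21.4-fold higher (75.0 to 1607). Gas6, a secreted ligand of TAM receptors, was 9.03-fold higher (201 to 1812), and its receptor Mertk stood at the floor on day 0 and at 687 on day 1. Hpse, heparanase, reached 559 from the floor. Cpn1, a carboxypeptidase subunit, was 22.2-fold higher (151 to 3342), and its 2 probe sets above the floor had log2 ratios from 1.70 to 4.47. The aldo-keto reductases Akr1c12 and Akr1c13 reached 1180.0 and 1139 from the floor, but they are near-identical copies and their signals are uncertain. Among the lowest, Slc7a3 and Fgf4 were joined by Tcea3, an elongation factor with 1734 and 157, Zfp423, a zinc finger factor (597 to 55.8, at least 10.7-fold), Bnc2, basonuclin 2 (639.5 to floor, at least 11.8-fold), and Enox1, an oxidase (682 to 55.9, at least 12.2-fold). Icam1, an adhesion receptor of leukocytes, was 5.12-fold lower (2073 to 405), and the EGF receptor ligand Hbegf 5.27-fold lower (1435 to 272).

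For some genes the day 1 signal was not kept on day 2. Only values are given, since both days share the day 0 array. Dnmt3a went from 969.6 on day 0 to 5334 and, on day 2, to 1094. Shkbp1, an SH3 adaptor binding protein with 1 probe set, had 1128, 11461 and 1675 in that order of days. Fbp2, a fructose bisphosphatase, had 296, 4902 and 1494. Cyp4f14, a fatty acid hydroxylase, reached 1006 on day 1 and did not pass the floor on either other day. In the opposite direction, Epas1 had 1656, 409.6 and 7544, and Igfbp4, an IGF-binding protein, 405, 89.1 and 546. These 6 genes were picked for this pattern after their values were seen.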

How the data were processed

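Gene expression was measured on 1 Affymetrix array each for day 0, day 1 and day 2. The values the authors deposited are linear intensity values per probe set, made with MAS5 per the submitters' processing notes. MAS5 combines perfect-match and mismatch probes. No version and no scaling target are given in the sources used here. On days 0, 1 and 2 the 2% trimmed means were 497.5, 497.6 and 497.7, as after scaling to 1 target, which assumes equal total signal per array. Over 45101 probe sets, 64 were controls, 34945 had 1 gene symbol, 932 several and 9160 none in GEO's platform annotation. By identifier, 34741 of the 34945 matched a RefSeq gene table (GRCm38.p6), used for symbols. Probe sets of several genes were left out. The columns not used numbered 0.

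Each array was scaled to 1 trimmed mean over non-control probe sets, signals under the 40th percentile (54.0) were set to that floor, and log2 was taken. The probe set with the highest log2 mean of all 3 days stood for its gene, which was compared where at least 1 of day 0 and day 1 lay above the floor. Calls needed 2-fold. The 80 gene lists held 2169 genes, 1769 of them measured. The lists and the genes to describe were chosen with earlier results of these data known. The rule named the 25 highest and 25 lowest genes whose probe sets had 1 sign, the 5 widest members of each list, all members of lists with up to 10 measured, and set regulators. Other genes were chosen after their values were seen. Promoter sequences came from RefSeq and covered 10934 of the 13602 genes. No p-value was computed. The calling steps were tested on simulated data. Work was done in Python 3.11.15 with numpy 2.4.6, pandas 2.3.3, statsmodels 0.14.6 and matplotlib 3.10.9. Alternatives were 2 other floors, a pseudocount, 3 scalings, 3 probe set rules and a 3-fold threshold.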

Additional observations from a re-analysis of the deposited data

Results flagged for a closer look

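Probe sets that the annotation pairs with no gene enter no comparison above. Of 4193 such probe sets above the floor on day 0 or day 1, 202 (4.82%) were at least 2-fold higher on day 1 and 184 (4.39%) lower, against 5.999% and 6.580% among named genes. The 2 with the highest ratios went from the floor to 1982 and to 1345. The 2 with the lowest went from 1056 to 98.3 and from 484 to 69.9. No sample group was large enough to look for outlying arrays.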

How the results depend on the processing

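No paired analysis was possible because each day has 1 array, and for the same reason no replicate was left out. Counts depended most on the floor and the threshold. Lowering the floor to the 25th percentile gave 1256 higher and 1618 lower genes, raising it to the 60th gave 539 and 517, and 3-fold gave 346 and 288. Under the pseudocount, the other scalings and the other probe set rules, the higher genes numbered 628 to 845 and the lower ones 653 to 902. Averaging over probe sets kept 593 of the 816 higher and 617 of the 895 lower genes. Of 198 named genes that passed 2-fold, 186 passed under every alternative of the floor, scaling and probe sets in which they could be measured. The other 12 were Foxa1, Hnf4a and Mttp (higher floor), Sos2 (higher floor and pseudocount), Dusp4 and Pdpn (pseudocount), Mycn, Fkbp5, Pdgfa and Esrp2 (mean over probe sets), and Fgfr1 and Fgfr2 (specific probe sets only). In all, 29 genes had no probe set left once those whose names mark possible cross-hybridisation were dropped, Sox17, Serpinh1 and Hspa5 among them. None of the 198 changed sign under any of these settings. Signals near the floor limit the folds most.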
